A study of Mus musculus with 24 samples.

Results

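The iron storage and transport genes of fasted mouse liver were followed here as 10 genes: the ferritin chains Ftl1 and Fth1, the hepcidins Hamp and Hamp2, the carrier transferrin (Trf), the receptors Tfrc and Tfr2, their partner Hfe, the importer Slc39a14 and the exporter Slc40a1. Each name matched 1 row of a deposited table of 54532 gene rows, so the set is 10 of 54532 rows. The set was chosen on these data, because Ftl1 was low in livers of mice lacking Rab30 in the whole body, and the contrast that chose it is therefore described without a test. RNA-seq came from whole livers of 24 male mice fasted for 24 h, in 6 groups of 4. Rab30KO mice had an exon of Rab30, a small GTPase of the Golgi, deleted in every tissue, and Rab30 Ctrl mice were their wild-type littermates. Rab30L-/- mice lost Rab30, Cpt2L-/- mice lost Cpt2 and DKO mice lost both genes through Cre recombinase under the albumin promoter, which acts in hepatocytes and leaves other liver cells with the floxed genes. The ff;ff mice carried the floxed Rab30 and Cpt2 genes without Cre and were littermates of the DKO mice, a relation that the labels do not give for Rab30L-/- and Cpt2L-/-. Cpt2 encodes carnitine palmitoyltransferase 2, which fatty acids need for oxidation in mitochondria. The labels give no age, and the study describes separate young adult animals as the 4 biological replicates of each genotype.

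Ferritin is a shell of heavy (Fth1) and light (Ftl1) chains that stores iron inside cells. Transferrin, made by hepatocytes, carries iron in blood and enters cells through Tfrc, while iron outside transferrin enters hepatocytes through Slc39a14 and leaves cells through ferroportin (Slc40a1). Hepcidin, the hormone encoded by Hamp in hepatocytes, closes ferroportin, and its transcription responds to iron sensed with Tfr2 and Hfe, to BMP ligands and to interleukin 6.

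Library totals ran from 11801027 to 24497738 counts, and every one of 36 replicate pairs within groups differed by more than counting noise. A count over a whole gene includes the exons that were not deleted, so Rab30 and Cpt2 counts do not check the labels: the 4 Cpt2L-/- libraries held 1899 to 2911 Rab30 counts and the 4 DKO libraries 1563 to 3900. All 8 hepatocyte markers examined were present in every group, with a summed level of 100154 to 134806 CPM (counts scaled to library size by TMM over the 24 libraries) in ff;ff, 77720 to 97158 in Rab30L-/-, 62107 to 74454 in DKO and 45260 to 53663 in Cpt2L-/-. In such bulk tissue fewer cells of a type and less RNA per cell cannot be told apart.

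Per unit of gene length, measured by the FPKM values that the authors deposited, Hamp, Fth1 and Ftl1 had the highest levels in ff;ff livers. There Hamp was at 2270 ± 616 FPKM (SD, n = 4), Fth1 at 1640 ± 262 and Ftl1 at 1090 ± 256, each overlapping the next in single libraries. Trf followed at 153 ± 75.9 and Tfr2 at 120 ± 17.3, and this pair overlapped as well. Slc39a14 (26.2 ± 11.7 FPKM), Hfe (16.8 ± 2.81) and Slc40a1 (16.3 ± 5.39) formed a lower group that overlapped among themselves, above Tfrc at 6.63 ± 1.9 and Hamp2 at 4.83 ± 3.79, which overlapped each other. The order at the top differed in Cpt2L-/- livers, where Fth1 was at 2430 ± 253 FPKM, Ftl1 at 1850 ± 409 and Hamp at 1150 ± 124. In DKO livers Fth1 (2570 ± 267) also had a higher mean than Hamp (2100 ± 638), with overlapping libraries, and in Rab30KO livers Ftl1 was at 126 ± 51.9 FPKM, with Trf at 165 ± 39.2.

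Ferritin messages carry an iron-responsive element, a stem-loop to which iron regulatory proteins bind. In GENCODE M21 transcripts (GRCm38) its loop, CAGTGN with a last base other than G and a C that 5 bases separate from the loop, was found in the 5′ UTR of Ftl1, Fth1 and Slc40a1, at 5 places in the 3′ UTR of Tfrc and at 1 place in the 3′ UTR of Fth1 on the transcribed strand. The sites are shown because they link storage, export and uptake genes, with the loop in capitals. The Ftl1 site lies at chr7:45459778-45459807 (minus strand), that of Fth1 at chr19:9982732-9982761 (plus), that of Slc40a1 at chr1:45925464-45925493 (minus) and the first of Tfrc at chr16:32631219-32631248 (plus).
Ftl1: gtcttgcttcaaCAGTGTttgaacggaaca
Fth1: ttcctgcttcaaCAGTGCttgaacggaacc
Slc40a1: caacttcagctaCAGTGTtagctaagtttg
Tfrc: aattatcggaagCAGTGCcttccataatta
The same pattern stood in 6.45% of the 47199 protein-coding transcripts with a 5′ UTR of at least 30 bases, so a match describes letters only.

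The Ftl1 row (ENSMUSG00000050708, chromosome 7 of GRCm38 from 45457944 to 45459884, minus strand), which chose the set, was low in whole-body Rab30 knockouts, where another light-chain row was high. Ftl1 was at 264, 143, 131 and 121 CPM in Rab30KO replicates 1 to 4. In Rab30 Ctrl replicates 1 to 4 it was at 489, 564, 831 and 1326 CPM, so the groups did not overlap, giving a difference of -2.27 on the log2 scale (standard error, SE, 0.37). Ftl2-ps, a processed pseudogene of the light chain on chromosome 4 (125504288 to 125504839, plus strand), was at 701, 738, 784 and 592 CPM in Rab30KO. The same row was at 320, 366, 0.56 and 0.067 CPM in Rab30 Ctrl replicates 1 to 4. It was thus high in the Rab30 Ctrl livers with the lowest Ftl1 values, replicates 1 and 2, and nearly empty in replicates 3 and 4. In the 16 libraries of the other 4 groups it lay between 0.0892 and 0.957 CPM.

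Ftl1 took 14.1% to 26.6% of all light-chain reads in the Rab30KO livers and Ftl2-ps took 70.6% to 84.4%. In Rab30 Ctrl replicates 1 and 2 the share of Ftl1 was 59.8% and 59% and that of Ftl2-ps 39.1% and 38.4%. Replicates 3 and 4 had 98.8% and 98.9% on Ftl1, as did the other 4 groups with 97.4% to 99%. Ftl1-ps2, a second pseudogene on chromosome 10, followed the same pattern at a low level, with 11 to 25 CPM in Rab30KO livers, 4.31 and 13.6 CPM in Rab30 Ctrl replicates 1 and 2, and at most 0.0812 CPM elsewhere. Ftl1-ps1 on chromosome 13, which the deposited table lists as protein-coding, moved with Ftl1 instead, at 0.842 to 3.25 CPM in the Rab30KO livers, below the 4.71 to 15.2 CPM of Rab30 Ctrl. A gene on the opposite strand over Ftl1, Gm10252, held 0 to 11 counts.

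The sum of the 4 light-chain rows overlapped between the groups. It was 993, 899, 929 and 727 CPM in Rab30KO replicates 1 to 4 (887 ± 113, SD, n = 4). In Rab30 Ctrl it was 818, 955, 841 and 1341 CPM (989 ± 242, SD, n = 4). With these rows added before the fit the log2 fold change was -0.15 (SE 0.20), against -2.27 for the Ftl1 row alone.

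**Figure D1:**
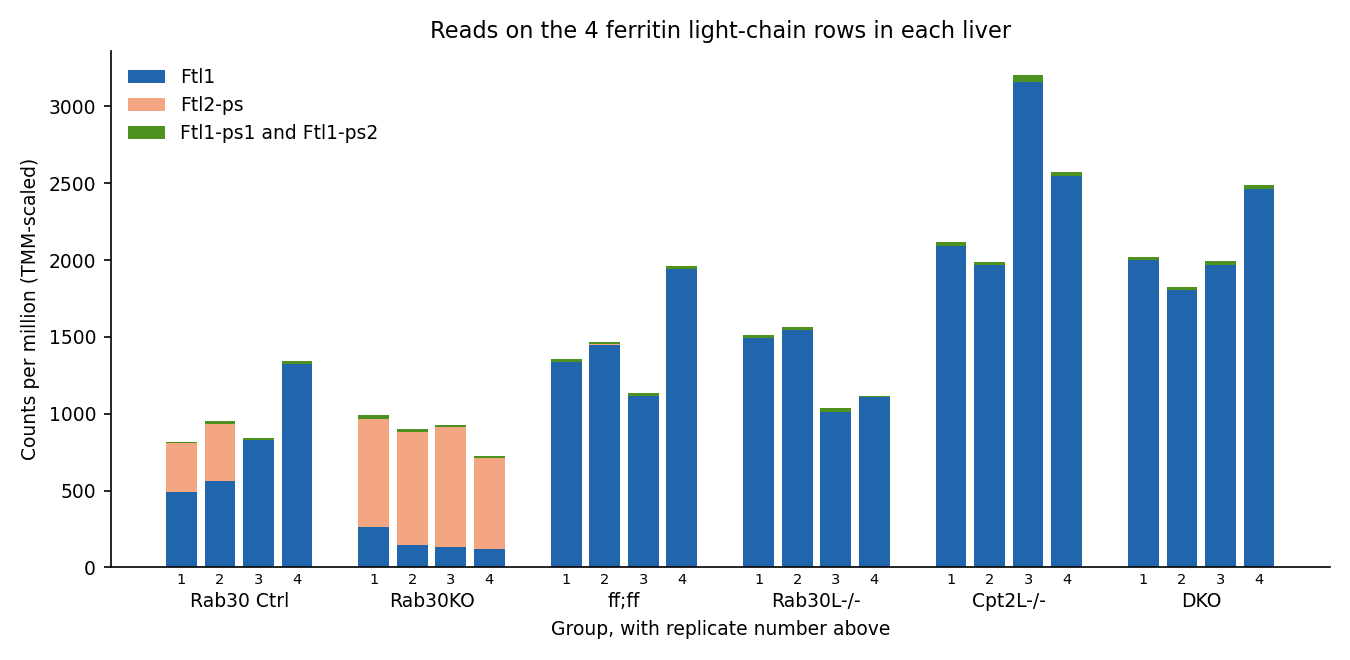
CPM (TMM-scaled, linear axis from 0) on the ferritin light-chain rows in each of the 24 livers, stacked by row, with the replicate number under each bar and the group below it. Ftl2-ps fills most of the bar in the 4 Rab30KO livers (592 to 784 CPM) and part of it in Rab30 Ctrl replicates 1 and 2 (320 and 366 CPM), while the full bars of these 2 groups overlap.

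The coding sequences of these rows are nearly the same. Over the 552 bases of Ftl1 coding sequence with its stop codon, Ftl2-ps differed at 7 bases (98.7% identity), with an identical stretch of 306 bases, Ftl1-ps2 at 12 of 549 aligned bases (97.8%) and Ftl1-ps1 at 2 bases (99.6%). A read inside an identical stretch matches both rows. How such reads were assigned is not given in the sources used here, so each light-chain row is uncertain on its own in every comparison. Whether the mice of these groups carry the light-chain sequences of the reference genome was not tested, and the low Ftl1 values in Rab30KO have that limit as well.

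The genes whose level over the 24 libraries was most like that of Ftl1 (Pearson r of log2 CPM) were Ftl1-ps1 (r = 0.943), Eif4a3 (0.899), Pop4 (0.891), Vrk3 (0.87) and Hspb6 (0.869), a description over libraries that share groups and scaling. Pop4 (38261996 to 38271423), Vrk3 (44748413 to 44777515) and Hspb6 (30552178 to 30555443) lie on chromosome 7, as do Ftl1 and Rab30 (92741603 to 92844535). Vrk3 had 12 ± 1.99 CPM in the Rab30KO livers against 18.7 ± 2.13 in Rab30 Ctrl (SD, n = 4), Pop4 6.29 ± 0.88 against 10.3 ± 0.972 and Eif4a3 21 ± 3.96 against 25.7 ± 1.16, each without overlap. Hspb6 overlapped at 5.19 ± 1.57 and 10.7 ± 6.37 CPM, and like Ftl1 all of these values were read from libraries that chose the set.

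The other 9 members lay close together in Rab30KO and Rab30 Ctrl. Fth1, the heavy chain (ENSMUSG00000024661, chromosome 19 from 9982703 to 9985092, plus strand), was at 1070 ± 196 CPM in Rab30KO and 1190 ± 220 in Rab30 Ctrl (SD, n = 4), a log2 fold change of -0.15 (SE 0.20). Slc40a1, the exporter (chromosome 1 from 45908068 to 45926523, minus strand), was at 312, 223, 329 and 240 CPM in Rab30KO against 200, 178, 207 and 227 in Rab30 Ctrl, with a log2 fold change of 0.45 (SE 0.18) and groups that overlapped at 1 library each. The remaining 7 had log2 fold changes between -0.08 and 0.17. Kupffer cells also make ferroportin, and the summed level of 11 Kupffer cell markers was 337 to 1584 CPM in Rab30KO and 439 to 740 in Rab30 Ctrl; their part in the Slc40a1 values was not tested. Of the 13656 genes tested in this contrast 0.022% were called (adjusted p under 0.05 in edgeR's quasi-likelihood test and at least a 1.2-fold change). The groups did not overlap for 1 of the 10 members, Ftl1, and nothing is read from that count because the contrast chose the set.

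Rab30 loss in hepatocytes alone left the iron genes without a called change. In Rab30L-/- against ff;ff 0 of 10 members were called, beside 0.479% of 13367 genes, with 1 member at an unadjusted p under 0.05 (11.2% of all genes) and 0 called by DESeq2 or by limma-voom. Ftl1 was at 1492, 1543, 1009 and 1106 CPM in Rab30L-/- and 1337, 1450, 1115 and 1939 in ff;ff, and Fth1 at 1410 ± 230 and 1420 ± 234 CPM (SD, n = 4). Tfrc, the receptor for iron-loaded transferrin (chromosome 16 from 32608920 to 32632794, plus strand), was the member under an unadjusted 0.05, at 45, 66, 87 and 42 CPM in Rab30L-/- and 58, 37, 40 and 30 in ff;ff, with overlapping groups (edgeR adjusted p = 0.435). The median log2 fold change of the members was 0.14, beside 0.0022 over all genes tested.

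Between Cpt2L-/- and ff;ff livers 7 of the 10 members were called, with Ftl1 and Fth1 higher and Hamp, Hamp2, Trf, Tfr2 and Slc39a14 lower in Cpt2L-/-. The labels do not give these groups as littermates, and 4 to 7 members were called when single libraries were omitted. In Cpt2L-/- against ff;ff 2 members rose and 5 fell, beside 11.9% of all 13270 genes called higher, 11.9% called lower and 23.8% in all. The median log2 fold change was -0.48 over the members and -0.0035 over all genes.

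Both ferritin chains rose in Cpt2L-/- livers. Ftl1 was at 2093, 1965, 3160 and 2544 CPM there, above every ff;ff value (1115 to 1939), with a log2 fold change of 0.76 (SE 0.21, edgeR adjusted p = 0.0179). The light-chain rows added together gave 0.76 with an adjusted p of 0.0181. The Ftl1 call was lost without Cpt2L-/- replicate 3 (0.61, adjusted p = 0.0631) and without replicate 4 (0.73, adjusted p = 0.0518). Fth1 was at 1936, 1898, 2372 and 2090 CPM in Cpt2L-/- and 1469, 1371, 1141 and 1705 in ff;ff. These groups did not overlap either, and the log2 fold change was 0.56 (SE 0.17, edgeR adjusted p = 0.026). Its call was lost without ff;ff replicate 2 (adjusted p = 0.0658), Cpt2L-/- replicate 3 (0.0753) or Cpt2L-/- replicate 4 (0.0706).

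Ferritin was also higher in DKO livers, which lack Cpt2 and Rab30. Fth1 was at 2473, 2048, 1982 and 2335 CPM in DKO, above every ff;ff and every Rab30L-/- library (1157 to 1686). The log2 fold change was 0.63 against ff;ff (SE 0.17, edgeR adjusted p = 0.0258) and 0.62 against Rab30L-/- (SE 0.17, adjusted p = 0.0155), 2 comparisons that share the DKO libraries. Against ff;ff the Fth1 call was lost without DKO replicate 1 (adjusted p = 0.0856), DKO replicate 4 (0.0569), ff;ff replicate 2 (0.0694) or ff;ff replicate 3 (0.0571). Ftl1 was at 2001, 1806, 1969 and 2461 CPM in DKO. Against Rab30L-/- it was higher (log2 fold change 0.65, SE 0.18, edgeR adjusted p = 0.0193), a call that was lost without Rab30L-/- replicate 4 (0.59, adjusted p = 0.061) and in a fit over all 24 libraries (adjusted p = 0.0872). Against ff;ff the Ftl1 values overlapped (0.49, SE 0.19, adjusted p = 0.108), and the gene passed by DESeq2 and without ff;ff replicate 4 (0.66, adjusted p = 0.0439).

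The hepcidins were the members called between DKO and Cpt2L-/- livers. The genes Hamp (ENSMUSG00000050440, chromosome 7 from 30942368 to 30944032, minus strand) and Hamp2 (30922372 to 30924681, minus strand) are a tandem pair whose coding sequences share 236 of 252 bases (93.7%), with a longest identical stretch of 80 bases. Their promoters are printed because the pair was called in the same comparisons. The 250 bases before the start that RefSeq (GRCm38.p6) gives each gene were read, Hamp at chr7:30944030-30944279 and Hamp2 at chr7:30924182-30924431, both on the minus strand. For Hamp2 the deposited coordinates begin further upstream, so this stretch lies inside the gene as the count table places it. Capitals mark the core of the BMP-responsive element (GGCGCC) and a STAT motif (TTCNNNGAA), each searched on both strands.
Hamp: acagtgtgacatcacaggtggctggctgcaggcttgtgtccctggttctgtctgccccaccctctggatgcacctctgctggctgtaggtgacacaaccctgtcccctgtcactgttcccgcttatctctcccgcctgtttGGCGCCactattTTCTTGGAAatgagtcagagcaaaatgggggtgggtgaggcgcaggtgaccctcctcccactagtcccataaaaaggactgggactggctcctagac
Hamp2: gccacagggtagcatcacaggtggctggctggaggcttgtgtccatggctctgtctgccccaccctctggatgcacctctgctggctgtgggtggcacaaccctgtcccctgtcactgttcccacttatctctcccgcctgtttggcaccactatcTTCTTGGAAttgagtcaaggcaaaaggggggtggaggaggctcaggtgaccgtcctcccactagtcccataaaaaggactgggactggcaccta
The promoters were identical at 227 of 247 aligned bases (91.9%). Hamp held 1 BMP core and 1 STAT motif, and Hamp2 held 1 STAT motif and 0 BMP cores. Of 32851 RefSeq promoters 9.59% held the BMP core and 7.02% the STAT motif within the same length.

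Hamp was at 397, 452, 506 and 499 CPM in Cpt2L-/- livers and 1276, 901, 654 and 889 in ff;ff. Every Cpt2L-/- liver lay below every ff;ff liver, with a log2 fold change of -0.99 (SE 0.20, edgeR adjusted p = 0.00259), and the call held without any one of the 8 libraries (adjusted p at most 0.0104). Hepatocyte markers were lower in the same comparison (median log2 fold change -1.13, 5 of 8 called lower). Their part in the Hamp and Hamp2 values was not tested. In DKO livers Hamp was at 547, 772, 1167 and 936 CPM, above all Cpt2L-/- livers. The log2 fold change of DKO against Cpt2L-/- was 0.87 (SE 0.20, edgeR adjusted p = 0.0426), and that of DKO against ff;ff was -0.12 (SE 0.25, adjusted p = 0.786).

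Hamp2 had few reads and was lowest in the same group. It had 6, 0, 9 and 10 counts in Cpt2L-/- replicates 1 to 4 (0.394 ± 0.282 CPM, SD, n = 4), 69, 26, 25 and 28 in ff;ff (2.82 ± 2.22 CPM) and 25, 63, 76 and 33 in DKO (3.11 ± 1.68 CPM). The Cpt2L-/- libraries lay below those of both other groups, with a log2 fold change of -2.76 against ff;ff (SE 0.67, edgeR adjusted p = 0.00963). Without ff;ff replicate 1 it was -2.07 and still called (adjusted p at most 0.0291 over the 8 fits that left out 1 library). DKO against Cpt2L-/- gave 2.94 (SE 0.62, edgeR adjusted p = 0.037).

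Hamp and Hamp2 were the 2 of 10 members called in DKO against Cpt2L-/-, both higher, beside 1.38% of 13306 genes called higher and 2.71% called in all. Both calls depended on single libraries. The Hamp call held only without DKO replicate 1 and was lost without any of the other 7 libraries (adjusted p from 0.056 without DKO replicate 3 to 0.122 without Cpt2L-/- replicate 4), by limma-voom (0.61, adjusted p = 0.0538) and over all 24 libraries (adjusted p = 0.144). The Hamp2 call was lost without DKO replicates 2 or 3 or any of the 4 Cpt2L-/- libraries (adjusted p at most 0.101) and over all 24 libraries (0.149). The summed level of the hepatocyte markers was higher in DKO than in Cpt2L-/-, and most of that sum was Alb (46500 ± 6010 and 31500 ± 4300 CPM, SD, n = 4). Of the 8 markers 1, Cyp3a11, was called higher and 0 lower. Apoa1 lay the other way with no overlap (3857 to 5762 CPM in DKO, 6327 to 7754 in Cpt2L-/-), and the 5 others overlapped. Erythroid markers summed to 127 to 416 CPM in DKO and 90.5 to 166 in Cpt2L-/-. The part of these markers in the hepcidin values was not tested.

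Hepcidin was not called in Rab30L-/- against ff;ff or in the interaction. In Rab30L-/- livers Hamp was at 585, 459, 1329 and 883 CPM, and the values spanned those of ff;ff (log2 fold change -0.18, SE 0.31, edgeR adjusted p = 0.881). The difference between the Rab30 effects with and without Cpt2 was 1.05 for Hamp (SE 0.40, edgeR adjusted p = 0.137). It was called only without Rab30L-/- replicate 3, the library with the highest Hamp value (1.37, adjusted p = 0.0436). For this interaction 0 of 10 members were called beside 4.06% of 14063 genes, with 1 member at an unadjusted p under 0.05 (21.7% of all genes) and 0 by DESeq2 or by limma-voom. In Rab30KO and Rab30 Ctrl livers Hamp was at 834 ± 198 and 889 ± 190 CPM (SD, n = 4) and Hamp2 at 9.01 ± 5.58 and 8.93 ± 5.59 CPM. The 5 genes with the highest r to Hamp over the 24 libraries reached lower values than for Ftl1: Ndufb1-ps (0.779), Gm26608 (0.751), Zbtb18 (0.736), Gm12338 (0.735) and Atp5j2 (0.732).

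**Figure D2:**
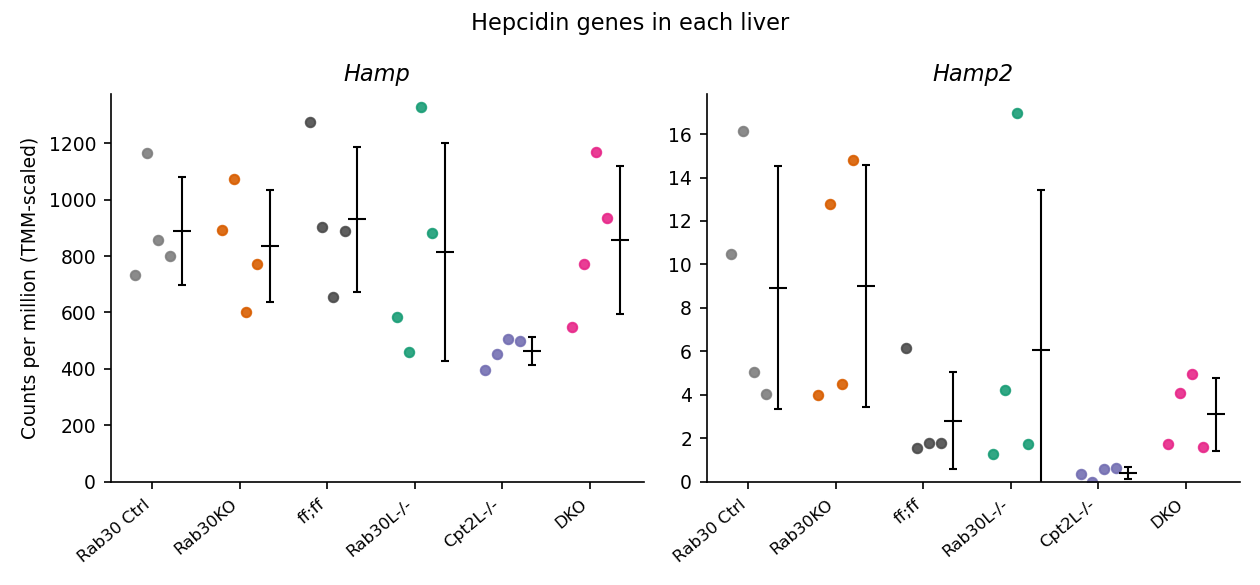
CPM (TMM-scaled, linear axes from 0) of Hamp and Hamp2 in each liver (points, in replicate order) with the group mean and SD (bars, cut at 0). The 4 Cpt2L-/- livers lie at 397 to 506 CPM for Hamp, below all ff;ff (654 to 1276 CPM) and all DKO livers (547 to 1167 CPM). Rab30L-/- replicate 2 (459 CPM) lies within the Cpt2L-/- range.

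Trf and Tfr2 were called lower in both groups without Cpt2, each against ff;ff. Trf, the iron carrier of plasma (chromosome 9 from 103204001 to 103230444, minus strand), was at 110, 123, 256 and 209 CPM in Cpt2L-/- and 843, 325, 295 and 566 in ff;ff. The groups did not overlap and the log2 fold change was -1.52 (SE 0.38, edgeR adjusted p = 0.0165), a call that held without any one library (adjusted p at most 0.0408) but not with no filter on low counts (-1.50, adjusted p = 0.0931). In DKO livers Trf was at 197, 262, 184 and 328 CPM, below all Rab30L-/- livers (507 to 733 CPM), with a log2 fold change of -1.29 (SE 0.20, edgeR adjusted p = 0.000724).

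Against ff;ff the DKO values of Trf overlapped, since 1 DKO liver (328 CPM) lay above 2 ff;ff livers (325 and 295 CPM), with a log2 fold change of -1.07 (SE 0.32, edgeR adjusted p = 0.0436). That call was lost without DKO replicates 1, 2 or 3 or ff;ff replicates 1 or 4 (adjusted p from 0.0762 to 0.114) and with no filter on low counts (0.168). Hepatocyte markers, which include no member, were lower in the same libraries (5 of 8 called lower in Cpt2L-/- and 4 of 8 in DKO, each against ff;ff). Their part in the Trf values, and in those of Tfr2 and Slc39a14 below, was not tested.

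Tfr2, the hepatocyte receptor that senses transferrin (chromosome 5 from 137569840 to 137587481, plus strand), was at 375, 330, 371 and 381 CPM in Cpt2L-/- and 421, 517, 592 and 550 in ff;ff. The groups were separate and the log2 fold change was -0.50 (SE 0.15, edgeR adjusted p = 0.0291), but the call held only without ff;ff replicate 1 and was lost without any of the other 7 libraries (adjusted p from 0.0528 to 0.0893). DKO livers had 372, 363, 333 and 301 CPM, below every ff;ff and every Rab30L-/- liver (555 to 736 CPM). The log2 fold change was -0.61 against ff;ff (SE 0.16, edgeR adjusted p = 0.0219), lost without DKO replicates 3 or 4 or ff;ff replicates 2 or 4 (at most 0.0649). It was -0.91 against Rab30L-/- (SE 0.15, adjusted p = 0.00111), and called without any one library.

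Slc39a14, which imports iron that transferrin does not carry (chromosome 14 from 70303469 to 70351425, minus strand), was at 143, 170, 119 and 130 CPM in Cpt2L-/- and 199, 220, 456 and 228 in ff;ff. The log2 fold change was -0.96 (SE 0.25, edgeR adjusted p = 0.0136), and -0.60 without ff;ff replicate 3, the highest library, still called (adjusted p at most 0.0458 without any one library). DKO livers had 144, 194, 166 and 104 CPM against 261, 436, 352 and 352 in Rab30L-/-, a log2 fold change of -1.22 (SE 0.21, edgeR adjusted p = 0.00169). Against ff;ff the DKO values were all lower as well, but the gene was not called (-0.86, SE 0.28, edgeR adjusted p = 0.0615). It was called there by DESeq2, by limma-voom, in the fit over all 24 libraries and without ff;ff replicate 1.

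Tfrc was at 31, 36, 21 and 29 CPM in Cpt2L-/- and 63, 73, 39 and 40 in DKO, with no overlap. The log2 fold change of DKO against Cpt2L-/- was 0.86 (SE 0.23, edgeR adjusted p = 0.0778), so it was not called there, whereas DESeq2 and limma-voom called it, as did edgeR without DKO replicate 3 or 4 (adjusted p at least 0.0471 over the fits that left out 1 library). In DKO against ff;ff Tfrc was at 0.39 (SE 0.25, edgeR adjusted p = 0.329) with overlapping groups, and limma-voom called it higher (0.72, adjusted p = 0.0207). Erythroid cells hold much Tfrc. The summed level of 8 erythroid markers was 90.5 to 166 CPM in Cpt2L-/-, 127 to 416 in DKO and 221 to 643 in ff;ff; their part in the Tfrc values was not tested.

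Slc40a1 and Hfe, the partner of the transferrin receptors (chromosome 13 from 23702034 to 23710854, minus strand), were called by edgeR in none of the 5 comparisons among the floxed lines. Slc40a1 was at 157 ± 33.1 CPM in Cpt2L-/-, 152 ± 35 in DKO, 147 ± 49.3 in ff;ff and 142 ± 26.2 in Rab30L-/- (SD, n = 4). Hfe was at 54.8 ± 5.34, 49.4 ± 5.91, 59.9 ± 10.4 and 61.2 ± 10.7 CPM in the same order.

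In DKO against ff;ff 1 member rose and 2 fell, beside 7.87% of 13389 genes called higher, 8.24% called lower and 16.1% in all. In DKO against Rab30L-/- 2 members rose and 3 fell, beside 14.9% of 13292 genes higher, 15.8% lower and 30.7% in all. The comparison of DKO with Rab30L-/- shares no library with that of Cpt2L-/- with ff;ff, and Ftl1, Fth1, Trf, Tfr2 and Slc39a14 were called in both with the same sign. The share of all genes called in both with the same sign was not computed, so nothing is read about the set from these shared calls. Hamp, called in Cpt2L-/- against ff;ff, was at 0.06 in DKO against Rab30L-/- (SE 0.33, edgeR adjusted p = 0.917).

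**Figure D3:**
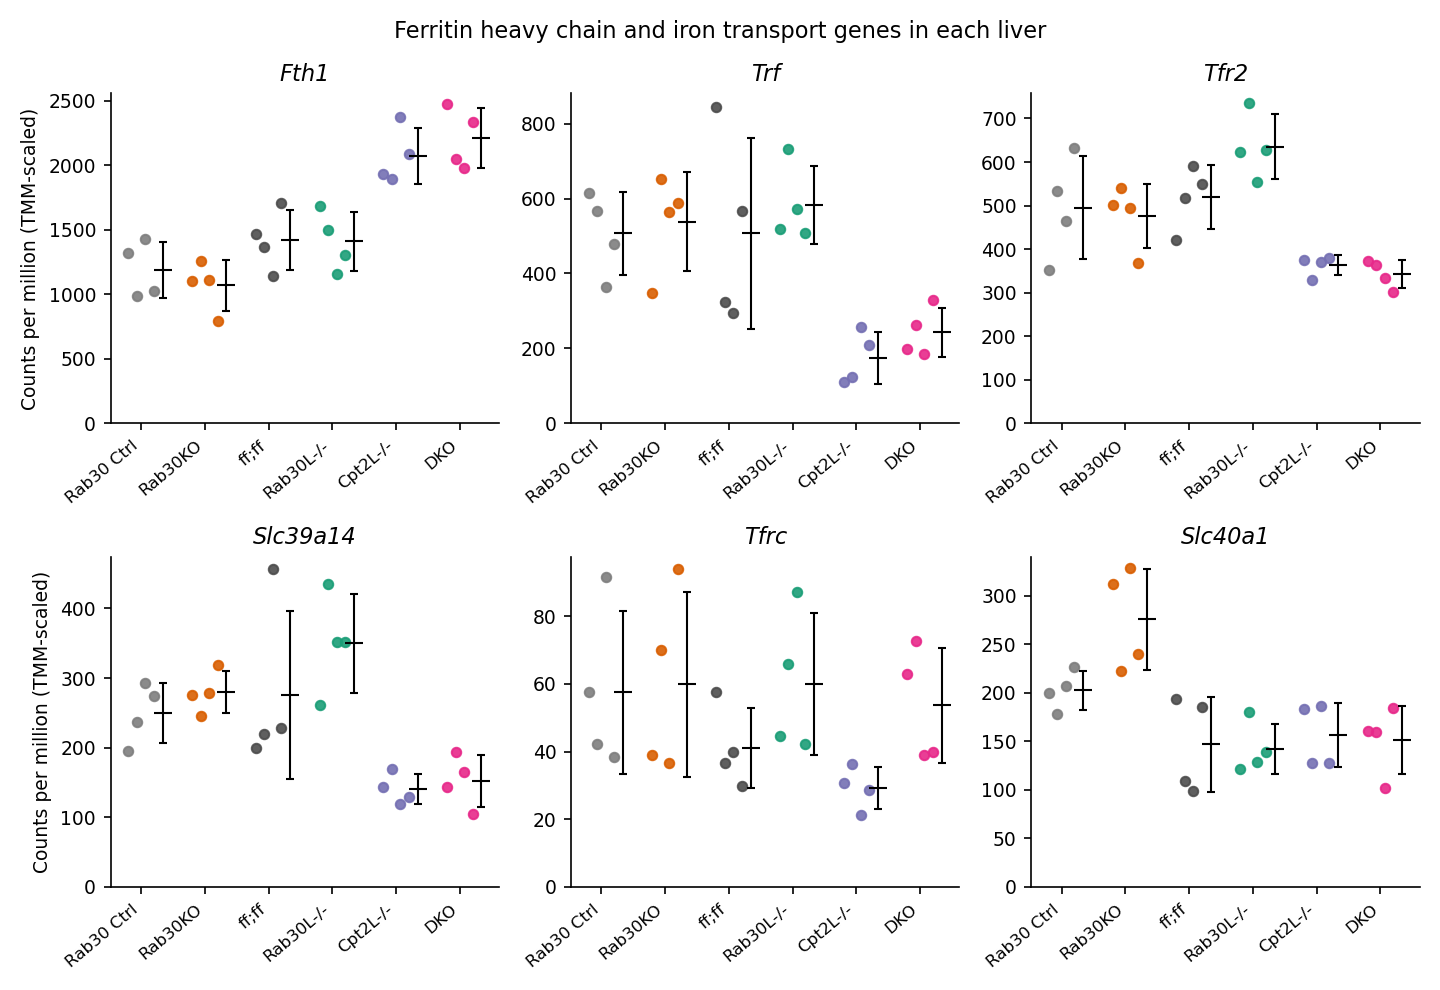
CPM (TMM-scaled, linear axes from 0) of 6 members in each liver (points, in replicate order) with the group mean and SD (bars). Fth1 is higher in the 8 livers without Cpt2 (1898 to 2473 CPM) than in all others, and Tfr2 lies at 301 to 381 CPM there.

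**Figure D4:**
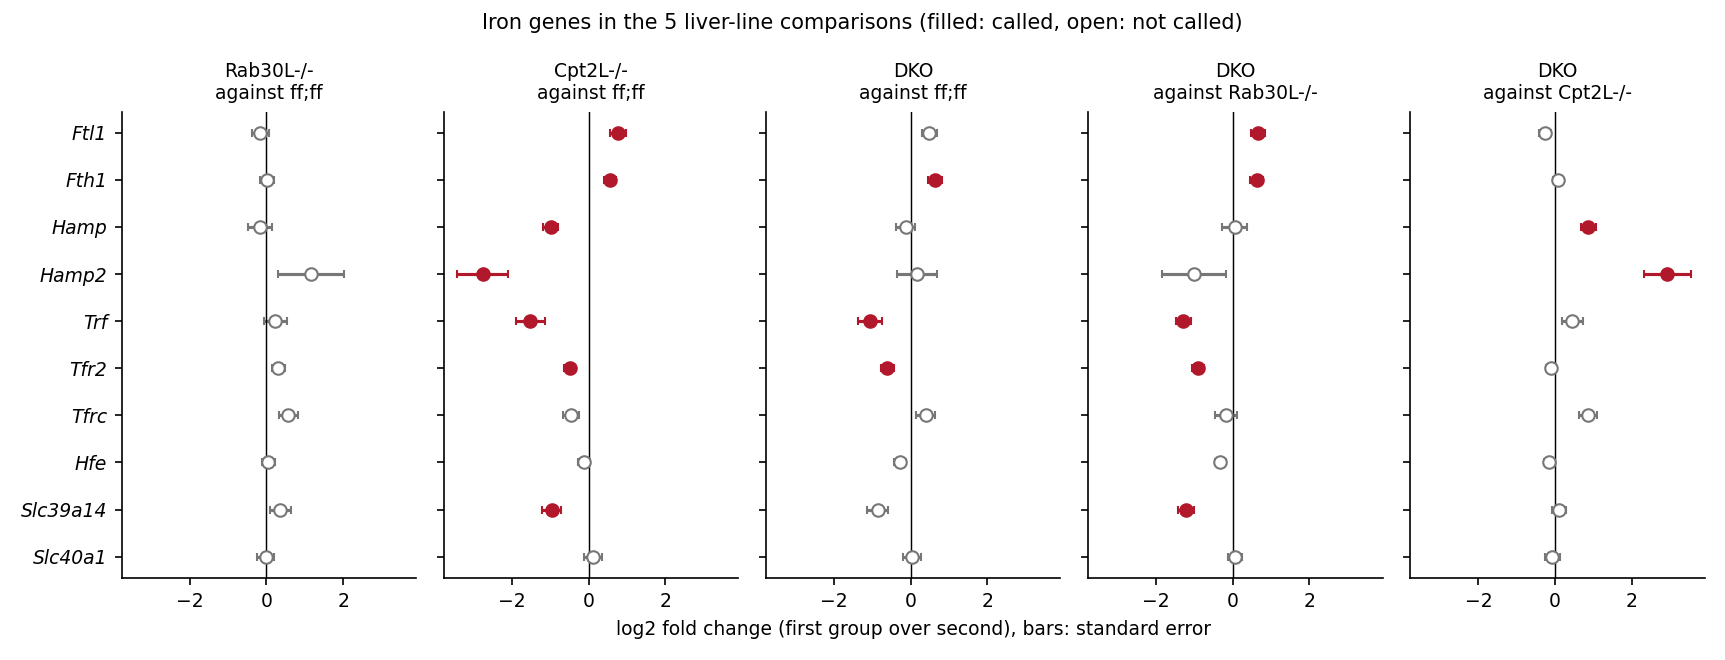
Log2 fold changes (first group over second) of the 10 members with standard errors from edgeR in 5 comparisons among the floxed lines, filled where called. Cpt2L-/- against ff;ff holds 7 filled points, DKO against Rab30L-/- 5, DKO against ff;ff 3, DKO against Cpt2L-/- 2 and Rab30L-/- against ff;ff 0.

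Other genes of iron handling were taken from 7 lists. In Rab30L-/- against ff;ff edgeR called 0 of their 109 tested genes, where 0.479% of all genes were called, and DESeq2 and limma-voom called 1 each. At an unadjusted p under 0.05 were 12 of these genes (11%), beside 11.2% of all 13367. The counts in Cpt2L-/- against ff;ff stand beside the 11.9% of all genes called higher and 11.9% called lower there. In Cpt2L-/- against ff;ff 0 of 7 tested genes for iron regulatory proteins and ferritin turnover rose and 2 fell (median log2 fold change -0.03). They were Ncoa4, which carries ferritin to the lysosome (-1.11, SE 0.20, edgeR adjusted p = 0.00113), and Herc2, a ligase for Ncoa4 (-0.66, SE 0.21, adjusted p = 0.0402). The Herc2 call was lost without ff;ff replicates 2 or 3 or Cpt2L-/- replicates 1, 3 or 4 (at most 0.113). Among 10 other uptake and export genes 1 rose and 5 fell (median -0.57), led by the ferritin receptor Scara5 (-3.82, SE 0.81, edgeR adjusted p = 0.0138; -4.89 without Cpt2L-/- replicate 2), the ferrireductase Steap3 (-1.51, SE 0.16, adjusted p = 2.9e-05) and the ferroxidase Cp (-1.01, SE 0.17, adjusted p = 0.00104). Scara5 spanned 0.766 to 13.1 CPM in Cpt2L-/- and 43 to 125 CPM in ff;ff. The other groups with Cpt2 overlapped Cpt2L-/-, at 3.85 to 23.3 CPM in Rab30 Ctrl, 1.27 to 42.9 in Rab30KO and 7.57 to 72.6 in Rab30L-/-.

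Of 21 hepcidin regulators and BMP-SMAD genes 3 rose and 2 fell in the same comparison (median 0.04), a share near the 23.8% of all genes called. The BMP target Id1 was higher (1.32, SE 0.29, edgeR adjusted p = 0.00493), as was its relative Id3 (1.28, SE 0.34, adjusted p = 0.0187), whose call was lost without ff;ff replicates 1 or 3 or Cpt2L-/- replicate 3 (at most 0.0641) and with no filter on low counts (0.102). B2m, the light chain that Hfe needs, was lower (-1.17, SE 0.21, edgeR adjusted p = 0.00113). Between these groups Id1 was higher where Hamp was lower, at 11.9 to 24.8 CPM in Cpt2L-/- and 4.64 to 11 CPM in ff;ff. Rab30 Ctrl livers, with Hamp at 734 to 1164 CPM, had Id1 at 4.13 to 16.5 CPM, which overlapped Cpt2L-/-. In DKO Id1 was at 7.67 to 8.29 CPM and lower than in Cpt2L-/- (-1.25, SE 0.22, edgeR adjusted p = 0.0149), a call lost without Cpt2L-/- replicate 4 (adjusted p = 0.0676) and over all 24 libraries (0.0569).

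Of 21 genes of the interleukin 6, STAT3 and acute-phase list, which holds receptors and transcription factors beside secreted acute-phase proteins, 9 fell and 1 rose in Cpt2L-/- against ff;ff, with a median log2 fold change of -1.03. Saa4 was at -4.37 (SE 0.22, edgeR adjusted p = 1.91e-07), Saa3 at -3.02 (SE 0.49, adjusted p = 0.00065; -3.75 without Cpt2L-/- replicate 3) and the receptor Il6ra at -1.88 (SE 0.20, adjusted p = 3.17e-05). In DKO Il6ra was above Cpt2L-/- (0.89, SE 0.17, edgeR adjusted p = 0.0242), a call lost without DKO replicate 2 or Cpt2L-/- replicates 2, 3 or 4 (at most 0.0922). Saa1 varied widely in Rab30L-/- (52.4 to 3079 CPM) and ff;ff (13 to 381 CPM), and was at 1.15 to 12 CPM in Cpt2L-/- and 4.05 to 6.35 CPM in DKO. It was at 12.7 to 75.2 CPM in Rab30KO and 6.14 to 34.3 CPM in Rab30 Ctrl, whose lowest liver lay within the ranges of Cpt2L-/- and DKO.

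Of 21 haem genes 3 rose and 7 fell in Cpt2L-/- (median -0.10). Haem oxygenase Hmox1, which frees iron from haem, rose by 2.05 (SE 0.53, edgeR adjusted p = 0.026), a call lost without ff;ff replicates 1, 2 or 4 or Cpt2L-/- replicates 1 or 3 (at most 0.0667) and with no filter (0.0809). The haem transporter Slc48a1 rose by 1.32 (SE 0.15, edgeR adjusted p = 4.41e-05), and the haptoglobin-haemoglobin receptor Cd163 was lower (-1.56, SE 0.19, edgeR adjusted p = 8.03e-05). Cd163 belongs to macrophages, and 3 of 11 Kupffer cell markers were also called lower and 1 higher; their part in the Cd163 value was not tested.

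Of 20 genes of the mitochondrial iron and Fe-S list 2 rose and 5 fell (median -0.15), with Bdh2 at -1.66 (SE 0.30, edgeR adjusted p = 0.00122), Sfxn1 at -0.92 (SE 0.16, adjusted p = 0.00124) and Fdxr, ferredoxin reductase, at -0.80 (SE 0.21, adjusted p = 0.0127). Of 10 genes of the Nrf2 list, which holds antioxidant targets, Nrf2 itself (Nfe2l2) and its repressor Keap1, 6 rose and 0 fell (median 0.49). Gsta1 was at 2.73 to 4.66 CPM in Cpt2L-/- and at most 0.362 in ff;ff (4.87, SE 0.60, edgeR adjusted p = 8.98e-05; 6.84 without ff;ff replicate 2), Srxn1 rose by 2.78 (SE 0.14, adjusted p = 1.91e-07) and Gclc by 1.47 (SE 0.23, adjusted p = 0.00048).

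In DKO against Rab30L-/- the calls over the lists were 2 higher and 0 lower of 7, 0 and 2 of 10, 7 and 3 of 21, 2 and 15 of 21, 2 and 6 of 21, 0 and 6 of 20, and 6 and 0 of 10 in the order above, and the medians were 0.15, -0.70, 0.12, -1.95, -0.25, -0.08 and 0.56. Of all genes 14.9% were called higher and 15.8% lower in this comparison. Fbxl5, which degrades an iron regulatory protein when iron is present, rose by 0.88 (SE 0.12, edgeR adjusted p = 0.000406), and the iron chaperone Pcbp2 by 0.43 (SE 0.11, adjusted p = 0.0126). Steap3 was lower (-1.43, SE 0.17, edgeR adjusted p = 0.000161) as was Steap4 (-1.29, SE 0.41, adjusted p = 0.0433), the latter lost without Rab30L-/- replicate 4 or any of the 4 DKO libraries (at most 0.104) and with no filter (0.132). Among hepcidin regulators Fgl1, a hepatokine that blocks BMP signals to hepcidin, was at -2.78 (SE 0.37, edgeR adjusted p = 0.000668) and Tmprss6, the protease that restrains hepcidin, at -0.82 (SE 0.15, adjusted p = 0.00194). Bmp2, made by sinusoidal endothelium, rose by 0.77 (SE 0.15, edgeR adjusted p = 0.00303). The 9 sinusoidal endothelial markers, Bmp2 among them, summed to 285 to 375 CPM in DKO and 264 to 297 in Rab30L-/-, with 2 called higher (Bmp2 and Oit3) and 0 lower, and their part in the Bmp2 value was not tested.

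Serum amyloid genes had wide spreads among Rab30L-/- livers in that comparison. Saa2 was at -9.84 (SE 2.40, edgeR adjusted p = 0.0243; -7.01 without Rab30L-/- replicate 2), and its call was lost without any of the 4 DKO libraries (at most 0.0703) and by limma-voom (0.126). Saa1 was at -7.50 (SE 1.64, edgeR adjusted p = 0.0161; -5.52 without Rab30L-/- replicate 2), lost without DKO replicates 1 or 3 (at most 0.0517), and Saa4 at -3.32 (SE 0.45, adjusted p = 0.0012). The haem scavenger Hpx was at -2.33 (SE 0.33, edgeR adjusted p = 0.000618; -1.85 without Rab30L-/- replicate 2), haptoglobin (Hp) at -1.64 (SE 0.30, adjusted p = 0.00243; -1.21 without that library) and the scavenger receptor Lrp1 at -1.15 (SE 0.25, adjusted p = 0.00618). Rab30L-/- replicate 2 had the highest Hpx and Hp values of its group, at 14650 and 8548 CPM beside medians of 6150 and 3910. From the mitochondrial iron and Fe-S list, Bdh2 was at -1.80 (edgeR adjusted p = 0.0106), Fdxr at -1.10 (0.00499) and Fdx1 at -0.71 (0.000953). Of the Nrf2 targets Gsta1 rose by 4.70 (edgeR adjusted p = 0.000561; 6.19 without Rab30L-/- replicate 3), Srxn1 by 2.28 (0.000145) and Gclc by 1.04 (0.00285). Kupffer cell markers were lower in the same comparison, 9 of 11 with 1 higher, at 198 to 265 CPM in DKO and 288 to 792 in Rab30L-/-, and their part was not tested.

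DKO against ff;ff, which shares its libraries with the comparisons above, gave 1 higher and 1 lower of 7, 0 and 3 of 10, 0 and 3 of 21, 2 and 10 of 21, 1 and 6 of 21, 0 and 4 of 20, and 4 and 0 of 10 in the same order, with medians of 0.13, -0.54, -0.09, -1.03, -0.18, 0.07 and 0.41. Of all genes 7.87% were called higher and 8.24% lower there. Among the named genes, those whose call held without any one library were Steap3 (-1.37, edgeR adjusted p = 0.000269), Slc39a8 (-0.66, 0.0124), Fgl1 (-1.42, 0.0137), Saa4 (-3.43, 9.37e-05), Saa3 (-2.53, 0.00142), Fgg (-2.19, 9.37e-05), Hpx (-1.31, 0.00882), Hp (-1.06, 0.00167), Bdh2 (-1.33, 0.0205), Fdxr (-0.85, 0.0111), Fdx1 (-0.56, 0.00892), Gsta1 (5.65, 0.000628; 7.62 without ff;ff replicate 2), Srxn1 (2.36, 9.37e-05) and Gclc (1.01, 0.00946). Fgl1 was not called over all 24 libraries (0.105) or with no filter (0.0788). Calls that omission of 1 library could end were Ncoa4 (-0.60, 0.0329, lost without DKO replicates 1, 3 or 4 or ff;ff replicates 2 or 3), Tmprss6 (-0.62, 0.018, lost without DKO replicates 3 or 4 or ff;ff replicate 4) and Lrp1 (-0.85, 0.0268, lost without DKO replicates 3 or 4 or ff;ff replicates 2 or 4). Lcn2 (-1.42, 0.0242) was lost without DKO replicates 1, 2 or 3 or ff;ff replicate 4, Fbxl5 (0.48, 0.0383) without any library but ff;ff replicate 1, and B2m (-0.71, 0.0406) without any library but DKO replicate 4 or ff;ff replicate 3. Their adjusted p without those libraries was at most 0.0992 for Ncoa4, 0.0634 for Tmprss6, 0.0876 for Lrp1, 0.0653 for Lcn2 and 0.111 for both Fbxl5 and B2m. Lcn2 was not called over all 24 libraries (-1.41, adjusted p = 0.43), nor Fbxl5 with no filter (0.0593).

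DKO against Cpt2L-/- called 6 of 109 tested list genes (5.5%), where 2.71% of all genes were called. DESeq2 called 17 of them, with 1032 calls over all genes, and limma-voom 21, with 1535. Beside Id1 and Il6ra the edgeR calls were Atoh8, a BMP target and activator of hepcidin (-0.65, SE 0.14, edgeR adjusted p = 0.0372), Slc48a1 (-0.60, SE 0.13, adjusted p = 0.0329), Sfxn1 (0.63, SE 0.14, adjusted p = 0.0382) and Nqo1 (-0.72, SE 0.15, adjusted p = 0.0327). Atoh8 was lost without any library but Cpt2L-/- replicate 3 (at most 0.128), Nqo1 without any but DKO replicate 3 (0.0982), Sfxn1 without DKO replicates 1 or 2 or Cpt2L-/- replicates 2, 3 or 4 (0.137) and Slc48a1 without DKO replicate 2 or Cpt2L-/- replicates 2, 3 or 4 (0.103). None of these 4 was called over all 24 libraries (adjusted p from 0.0558 for Slc48a1 to 0.171 for Nqo1).

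**Figure D5:**
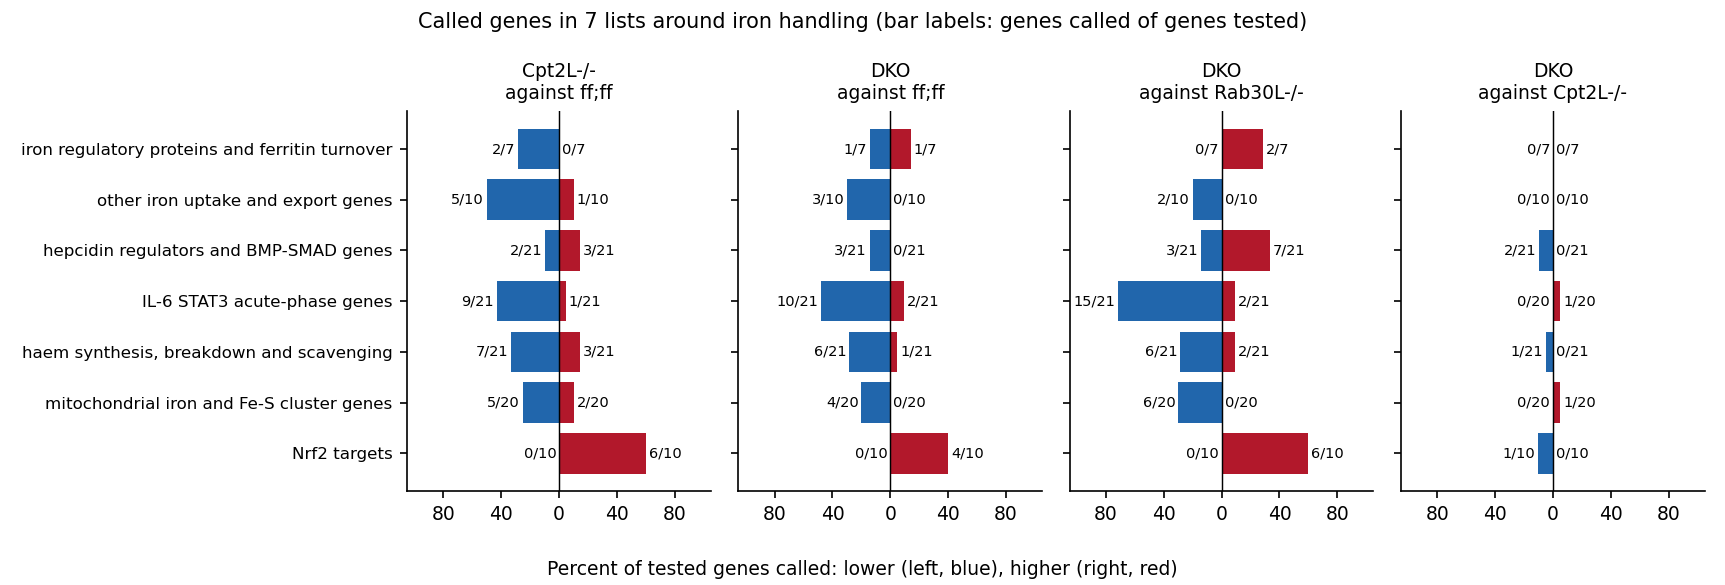
Percent of the tested genes of each list that were called lower (left, blue) or higher (right, red) by edgeR in 4 comparisons, with called over tested genes beside each bar. The Nrf2 list has 6 of 10 genes higher in Cpt2L-/- against ff;ff and in DKO against Rab30L-/-, and the interleukin 6, STAT3 and acute-phase list 9 and 15 of 21 lower.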

How the data were processed

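Per the labels, liver RNA was sequenced from 24 mice in 6 groups, and groups were read from the genotype labels. The values used are raw read counts that the authors deposited for every gene, whole numbers with no scaling, and their deposited FPKM values, whose formula is not given in the sources used here. The submitters' processing notes name HISAT2, DESeq2, GRCm38 and mm10. The counter, the annotation version, the strand setting and the treatment of reads with several matches are not given in the sources used here, so paralogs, pseudogenes and overlapping genes are uncertain. A deposited table of normalized values and the authors' tables of fold changes and p-values were not used.

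Counts were filtered with filterByExpr and scaled by TMM. A comparison used the 8 libraries of its groups (16 for the interaction) and edgeR's quasi-likelihood test (edgeR 4.0.16, R 4.3.3), with Benjamini-Hochberg adjustment over all genes tested. Calls needed an adjusted p below 0.05 together with a change of 1.2-fold or more. Levels are CPM scaled over 24 libraries. Library totals were 11801027 to 24497738 counts. The fits were tested on simulated counts.

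The members and gene lists were chosen with earlier results of these data known. Named were all 10 members, every ferritin row over 1 CPM in any library, from each list and comparison the 3 called genes with the largest change and a mean of at least 1 CPM, and the 5 genes most like Ftl1 and Hamp. Of the list genes 2 names matched no row. Alternatives were DESeq2 1.42.0 size factors, its Wald test, limma-voom (limma 3.58.1) with quality weights, 1 fit over 24 libraries, a filter of 1 count in total, a filter of 10 counts per library, omission of single libraries, and ferritin rows summed. Of 54532 gene identifiers 98.1% had the same coordinates in GENCODE M21, the source of transcripts. Promoters are RefSeq's (GRCm38.p6). Alignments and figures were made in Python.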

Additional observations from a re-analysis of the deposited data

Results flagged for a closer look

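In 7 of 76 groups of 4 livers 1 value stood far from the other 3 by Dixon's ratio of gap to range, where chance flags about 1 in 20. Ftl1 was at 264 CPM in Rab30KO replicate 1 against 121 to 143 CPM in the others, and Slc39a14 at 456 CPM in ff;ff replicate 3 against 199 to 228. Hamp2 was at 6.15 CPM in ff;ff replicate 1 against 1.57 to 1.79, and Hfe at 46.8 CPM in Cpt2L-/- replicate 1 against 57 to 57.8. The other 3 were pseudogene rows with few reads: Ftl2-ps at 0.261 CPM in DKO replicate 3, Ftl1-ps2 at 0.0812 CPM in Rab30L-/- replicate 2 and at 0.0708 CPM in ff;ff replicate 3.

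By edgeR's interaction test the change with Rab30 loss differed between livers without and with Cpt2 for 6 of 111 tested list genes (5.41%), where 4.06% of all genes were called, and 5 of the 6 were among the named genes. Id3 had a log2 fold change of -1.17 in DKO against Cpt2L-/- (adjusted p = 0.0519) and 0.58 in Rab30L-/- against ff;ff (adjusted p = 0.442), an interaction of -1.75 (standard error 0.41, adjusted p = 0.0275). Bmp2 had 1.23 (standard error 0.25, adjusted p = 0.0115), from 0.40 with Cpt2 lost (adjusted p = 0.198) and -0.83 with Cpt2 present (0.0837). Neither change was called by edgeR on its own. The interaction call of Bmp2 held without any one of the 16 libraries (adjusted p at most 0.027). Bmp2 is itself 1 of the 9 sinusoidal endothelial markers, whose median log2 fold change in Rab30L-/- against ff;ff was -0.42, with 0 called and summed levels of 264 to 297 and 283 to 407 CPM. Their median interaction was 0.47, with Bmp2 the 1 called, and their part in the Bmp2 value was not tested. Acvr2a, an activin receptor, had 0.88 (adjusted p = 0.0322), Sfxn1 0.84 (0.0297) and Slc48a1 -0.80 (0.0297). The Id3 call was lost without Rab30L-/- replicate 2, DKO replicates 2 or 4, ff;ff replicate 1 or Cpt2L-/- replicates 3 or 4 (adjusted p at most 0.0568). The Acvr2a call was lost without Rab30L-/- replicates 2 or 3, DKO replicates 1 or 2, ff;ff replicate 1 or Cpt2L-/- replicates 3 or 4 (at most 0.0742). Sfxn1 lost its call without Rab30L-/- replicates 3 or 4, DKO replicates 1 or 2 or Cpt2L-/- replicates 2, 3 or 4 (at most 0.0651), and Slc48a1 without Rab30L-/- replicate 2, DKO replicates 2 or 3, ff;ff replicate 1 or Cpt2L-/- replicates 2 or 3 (at most 0.0637). Over all 24 libraries Id3 (0.0781) and Acvr2a (0.0559) were not called, nor was Id3 with no filter on low counts (0.0764).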

How the results depend on the processing

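Every called member and named gene kept its sign under the alternatives tried. Outside Rab30KO against Rab30 Ctrl, 55 of 1943 recomputed fold changes had the opposite sign, over 20 of 43 member results that were not called and 0 that were, all with an adjusted p of at least 0.641. Within Rab30KO against Rab30 Ctrl 17 values of members near 0 did so. No paired analysis was possible because the labels give the groups no shared replicate numbers. The members called moved by over 1.5 times in DKO against ff;ff, from 3 to 5 by DESeq2 and 5 by limma-voom, and in DKO against Cpt2L-/-, from 2 to 0 over all 24 libraries and 1 with at least 10 counts in every library. All genes called in Rab30KO against Rab30 Ctrl went from 3 to 10 by DESeq2, 1 by limma-voom, 9 over all 24 libraries, 6 with no filter and 0 with at least 10 counts. In Rab30L-/- against ff;ff they went from 64 to 298, 239 with limma-voom, 240 with no filter and 25 with at least 10 counts. DKO against ff;ff had 3742 by limma-voom (2157), and DKO against Cpt2L-/- 1032 by DESeq2, 1535 by limma-voom, 114 over 24 libraries and 705 with no filter (360). The interaction had 1080 by DESeq2, 1294 by limma-voom and 374 over 24 libraries (571). When single libraries were omitted the genes called ran from 0 to 4, 23 to 93, 2352 to 3459 (Cpt2L-/- against ff;ff), 1485 to 2675, 57 to 445, 3204 to 3976 (DKO against Rab30L-/-) and 300 to 679. The members called ran from 4 to 7 in Cpt2L-/- against ff;ff, 1 to 3 in DKO against ff;ff, 0 to 2 in DKO against Cpt2L-/-, 4 to 5 in DKO against Rab30L-/- and 0 to 1 for the interaction. Counts of Hamp2 were low, with at most 10 in any Cpt2L-/- library. The cause of these shifts was not tested.

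By limma-voom the log2 fold changes that turned were Fth1 (-0.01) and Slc40a1 (0.17) in Rab30L-/- against ff;ff, Slc40a1 in DKO against Cpt2L-/- (0.08), Hamp (-0.02) and Tfrc (0.15) in DKO against Rab30L-/-, and Trf in the interaction (-0.01), and with no filter Fth1 in Rab30L-/- against ff;ff (0.00). With single libraries omitted, values on both sides of 0 in Rab30L-/- against ff;ff were those of Fth1 (-0.09 to 0.11), Ftl1 (-0.27 to 0.00), Hamp (-0.50 to 0.01), Hamp2 (-0.16 to 1.86), Hfe (-0.08 to 0.15) and Slc40a1 (-0.17 to 0.13). In Cpt2L-/- against ff;ff it was Slc40a1 (-0.03 to 0.27). In DKO against ff;ff they were Hamp (-0.32 to 0.06), Hamp2 (-0.16 to 0.85) and Slc40a1 (-0.11 to 0.19), and in DKO against Cpt2L-/- Slc39a14 (-0.04 to 0.26) and Slc40a1 (-0.15 to 0.08). In DKO against Rab30L-/- they were Hamp (-0.13 to 0.38), Hamp2 (-1.33 to 0.33), Slc40a1 (-0.01 to 0.22) and Tfrc (-0.35 to 0.05), and in the interaction Fth1 (-0.03 to 0.17), Ftl1 (-0.27 to 0.05), Slc40a1 (-0.19 to 0.11) and Trf (-0.12 to 0.47).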
